A study of Mus musculus with 12 samples.

Results

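The SoxE transcription factors and the genes that mark the path from Schwann cell precursor to myelinating Schwann cell were followed through 12 rhabdoid tumors that arose in mice of the genotype P0-CreC;Smarcb1flox/flox. The set consists of 9 genes chosen by name (Sox8, Sox9, Sox10, Erbb3, Ngfr, Cdh19, Pou3f1, Egr2 and Pmp22), and all 9 were among the 24060 gene rows measured. Each tumor was a naturally occurring mass from an FVB/N mouse, frozen after dissection and profiled by RNA sequencing of total RNA depleted of ribosomal RNA. The labels gave 4 Retro-orbital, 3 Cheek, 3 Meninges, 1 Vestibular N and 1 Trigeminal N tumor, called vestibular and trigeminal nerve tumor here. Every tumor carried the same genotype, both Smarcb1 alleles floxed and Cre driven by a promoter active in the neural crest and its Schwann cell descendants, and no normal nerve or schwannoma was analysed here. The age of each animal and its treatment were not given beyond the tumors being spontaneous.

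SoxE factors carry a DNA-binding HMG box. Sox9 acts early in the neural crest and in cartilage, Sox10 is kept by the glial and melanocyte branches of the crest, and Sox8 often acts beside Sox10. In the Schwann cell lineage Sox10 is required for glial fate and for expression of Erbb3, the receptor through which axonal neuregulin-1 keeps precursors alive. Ngfr (the p75 neurotrophin receptor) and the cadherin Cdh19 mark precursors and immature cells, Pou3f1 (Oct6) marks the promyelinating stage, and Egr2 (Krox20) switches on myelin genes, among them Pmp22.

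Libraries were scaled to totals of 13206168 (cheek tumor 3) to 57128422 (retro-orbital tumor 3) fragments as recovered from the values, and 12575 to 14528 genes reached 1 RPKM (fragments scaled by gene length and by library total). Smarcb1 was listed at 1.70 to 6.31 RPKM (70 to 447 fragments) in these bulk tumors; a gene-level value does not show which exons the fragments came from, and host cells keep the gene. Sample titles shared their first part in 3 pairs (cheek tumors 2 and 3, cheek tumor 1 and meninges tumor 1, retro-orbital tumor 3 and the trigeminal tumor), and whether a pair came from 1 animal was not stated. Cheek tumors 2 and 3 stood closest of all pairs. Their log2 ratios had an SD of 0.234 over 6121 genes at 10 RPKM or more in both, against 0.515 to 0.888 in the 63 pairs without a shared title part. They differed by more than counting error (SD 0.46 over 30 listed genes, 0.058 from counting) and were kept as separate samples, so the spread within the cheek group may be smaller than that between animals. In bulk tumors, fewer cells of a type and less RNA per cell cannot be told apart, and p-values measure the spread between these samples.

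The 9 genes spanned a wide range of levels per length. By median RPKM the order was Pmp22 (60.9), Erbb3 (9.82), Egr2 (6.0), Sox9 (1.36), Ngfr (1.11), Sox10 (0.925), Cdh19 (0.578), Sox8 (0.567) and Pou3f1 (0.296). Only Pmp22 and Egr2 reached 1 RPKM in 12 of 12 tumors; Erbb3 reached it in 8, Sox9 and Ngfr in 7 each, Sox10 in 5, Pou3f1 in 4, and Sox8 and Cdh19 in 3 each. None was at 0 in any tumor, and the lowest value of the set rested on 4 fragments (Pou3f1 in retro-orbital tumor 2). Of the 36 pairs of genes, 22 differed in log2(RPKM + 1) by an exact sign-flip permutation test over 12 tumors (two-sided, Benjamini-Hochberg adjusted over 36 pairs). Pmp22 was above each of the other 8 genes in 12 of 12 tumors, with the smallest p the test allows (0.000488, adjusted 0.00126). Egr2 was above Sox8, Sox10, Cdh19 and Pou3f1 in 12 of 12 tumors. Among neighbours in the order, Pmp22 differed from Erbb3 and Egr2 from Sox9 (adjusted p = 0.00833, Egr2 higher in 11 of 12 tumors, exact sign-flip permutation test). Erbb3 and Egr2 were not told apart, with each higher in 6 of 12 tumors (adjusted p = 0.868, exact sign-flip permutation test), and no other neighbours down to Pou3f1 differed beyond their spread.

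**Figure D1:**
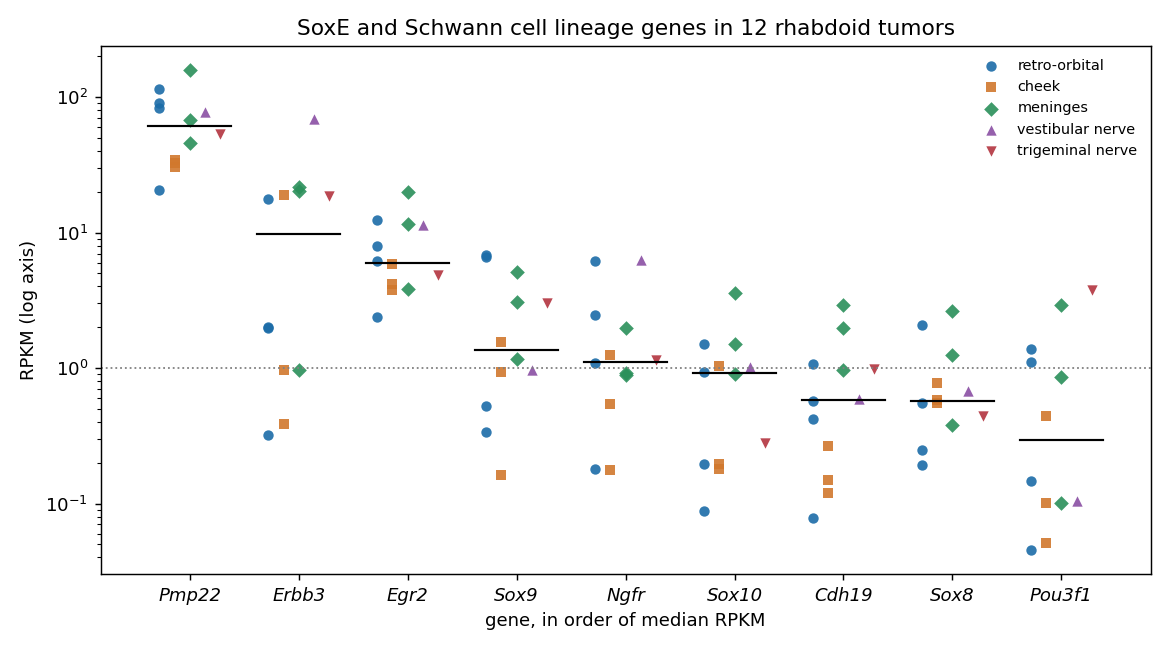
RPKM of each gene (log axis) in each of the 12 tumors, with colors and symbols for the tumor location, a bar at the median and a dotted line at 1 RPKM. Pmp22 sits between 20.6 and 159 RPKM, Erbb3 spreads from 0.322 to 68.8 RPKM, and the 3 SoxE genes stay at or below 6.86 RPKM.

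The SoxE factors were low; Sox8 and Sox10 were highest in meninges tumor 1 and Sox9 in retro-orbital tumor 3. Sox10 (chr15:79154908-79165240, minus strand, GRCm38) measured 0.939, 0.0878, 1.5 and 0.197 RPKM in retro-orbital tumors 1 to 4, 1.03, 0.181 and 0.195 in cheek tumors 1 to 3, 3.56, 0.911 and 1.51 in meninges tumors 1 to 3, 1.02 in the vestibular nerve tumor and 0.279 in the trigeminal nerve tumor. In order of value, 5 tumors were at or below 0.279 RPKM (7 to 22 fragments) and 7 at or above 0.911. This gap was too narrow for the rule on separate ranges given for Erbb3 below. Each replicated location except the meninges held tumors on both sides of it. Even the highest Sox10 value ranked above only 54.0% of all genes in its own tumor.

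Sox9 (chr11:112782224-112787760, plus strand) measured 0.525, 6.59, 6.86 and 0.339 RPKM in the retro-orbital tumors, 1.55, 0.163 and 0.931 in the cheek tumors, 3.05, 1.17 and 5.09 in the meninges tumors, 0.959 in the vestibular and 3.02 in the trigeminal nerve tumor. The retro-orbital tumors thus held both the highest values and some of the lowest ones. Retro-orbital tumor 2 had Sox9 at 6.59 RPKM (803 fragments) and Sox10 at 0.0878 (7 fragments), while in meninges tumor 1 both were above 3 RPKM. Over all 12 tumors Sox9 was above Sox10 in 8, by a mean of 0.68 on the log2(RPKM + 1) scale (exact sign-flip permutation p = 0.0303, adjusted 0.0495).

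Sox8 (chr17:25565892-25570686, minus strand) measured 0.554, 0.250, 0.193 and 2.06 RPKM in the retro-orbital, 0.553, 0.777 and 0.581 in the cheek, 2.63, 0.380 and 1.26 in the meninges, 0.681 in the vestibular and 0.441 in the trigeminal nerve tumor. Retro-orbital tumor 4, the second highest for Sox8, had Sox10 at 0.197 RPKM and Sox9 at 0.339, so the 3 factors did not rank the tumors alike. The antisense gene 2810468N07Rik overlaps Sox8, and since the strand setting of the counting was not given, reads of the pair cannot be told apart. Correlations between the 3 factors over 12 tumors were r = 0.33 for Sox9 with Sox10 (rho = 0.45), r = 0.39 for Sox8 with Sox10 (rho = 0.22) and r = -0.22 for Sox8 with Sox9 (rho = -0.44), with permutation p-values of 0.302, 0.205 and 0.490 for r and adjusted p-values of 0.605, 0.582 and 0.803 over 36 pairs (0.429, 0.719 and 0.429 for rho). Without the 2 tumors farthest from the median of the first gene named in each pair, r was 0.58, 0.20 and -0.31. Without the 2 farthest from the median of the second gene it was 0.63, -0.31 and 0.19, so the sign of both relations of Sox8 turned with the tumors left out.

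Among the receptors, Erbb3 (chr10:128567523-128589652, minus strand) varied most of the 9 genes. It measured 2.01, 0.322, 17.6 and 1.97 RPKM in the retro-orbital tumors, 19.0, 0.389 and 0.961 in the cheek tumors, 21.7, 0.965 and 20.3 in the meninges tumors, 68.8 in the vestibular and 18.6 in the trigeminal nerve tumor. Its values fell into 2 separate ranges, 6 tumors at or below 2.01 RPKM and 6 at or above 17.6, with no tumor between. This gap was noticed in the data, and a rule written after it (a gap over 0.333 of the log2 range, with at least 3 tumors on each side) found it in no other of the 9 genes. Each of the 3 replicated locations had tumors in both ranges. Within retro-orbital tumors, tumor 3 stood alone at 17.6 RPKM (4048 fragments) above a next highest value of 2.01.

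Since Erbb3 fell into separate ranges, its relation to other genes was read within each range of 6 tumors. Splitting on Erbb3 itself takes out the difference between the ranges, so these tests cannot show a relation that lies between them. Of 16 relations (8 genes in 2 ranges), none had an adjusted p below 0.05 by an exact permutation test of r. The smallest was Pou3f1 in the low range (r = 0.63, exact p = 0.0125, adjusted 0.20; rho = 0.94, adjusted 0.133). For Sox10, r was 0.51 in the low range and -0.06 in the high range (adjusted exact permutation p = 0.578 and 0.898; rho = 0.94 and 0.20, adjusted 0.133 and 0.917). Between the ranges, the median of Sox10 was 0.196 RPKM in the low and 1.27 RPKM in the high range. Its values overlapped, at 0.0878 to 0.939 and 0.279 to 3.56 RPKM. Over all 12 tumors Sox10 and Erbb3 had rho = 0.85 (adjusted permutation p = 0.0225) and r = 0.63 (adjusted permutation p = 0.223). Single tumors still parted from this relation. The trigeminal nerve tumor had Erbb3 at 18.6 RPKM (1584 fragments) with Sox10 at 0.279 (16 fragments), and retro-orbital tumor 1 had Erbb3 at 2.01 with Sox10 at 0.939. Erbb3 was nevertheless above Sox10 in 12 of 12 tumors, by a mean of 1.99 on the log2(RPKM + 1) scale (exact sign-flip permutation p = 0.000488, adjusted 0.00126).

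The genes whose profile over the 12 tumors was most like that of Erbb3 were Grb7 (r = 0.98), Cblc (r = 0.98) and Rasef (r = 0.97), ranked among 15043 genes as a description with no test and with r taken across both ranges. Grb7 encodes an adaptor that binds receptor tyrosine kinases and Cblc a ubiquitin ligase of the Cbl family. Grb7 reached 18.6 RPKM and Cblc 18.7 RPKM in the vestibular nerve tumor, the highest tumor for Erbb3, and both stayed at or below 0.525 RPKM in the 6 tumors of the low Erbb3 range. Of 8 epithelial genes, chosen as a list after their values were seen and therefore given without a test, 3 (Grhl2, Esrp1 and Epcam) were higher in every tumor of the high Erbb3 range than in any of the low range, and 5 (Cdh1, Cldn4, Cldn7, Krt8 and Krt18) overlapped between the ranges. The share of all genes that separate the same tumors was not measured, so 3 of 8 has no background to be read against. Grhl2, a transcription factor of epithelia, was at 9.15 RPKM or more in the 6 tumors with high Erbb3 and at 0.566 RPKM or less in the others. Esrp1, an epithelial splicing factor, was at 7.83 RPKM or more and 2.38 RPKM or less in the same tumors. Epcam, an epithelial adhesion molecule, was at 57.2 RPKM or more and 40.1 RPKM or less, and Krt8, a keratin of simple epithelia, reached 67.0 RPKM in the low range. The 8 genes of that list summed to 5.61 to 718 RPKM over the 12 tumors, with cheek tumors 2 and 3 at 421 and 403 RPKM mostly through Krt18 (408 and 385 RPKM) and with Erbb3 below 1 RPKM, above the sums of 4 of the 6 tumors with high Erbb3. Their part in the Erbb3 values was not tested.

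**Figure D2:**
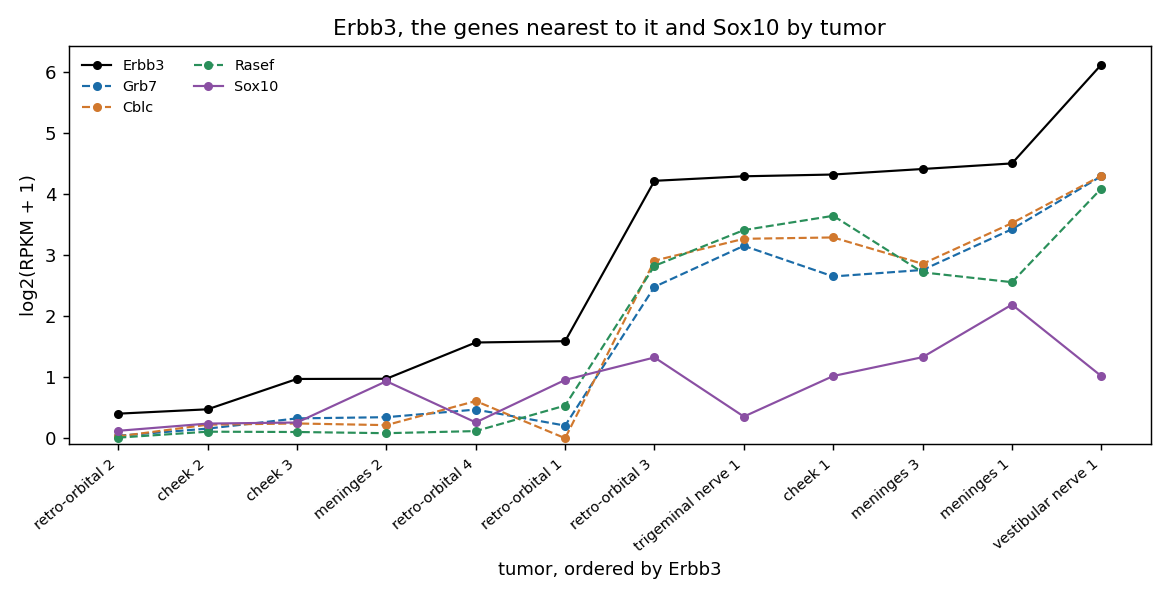
Log2(RPKM + 1) of Erbb3, of Grb7, Cblc and Rasef, and of Sox10, in the 12 tumors ordered by Erbb3 (lines join tumors for legibility only). Erbb3 steps from 2.01 to 17.6 RPKM between retro-orbital tumors 1 and 3, Grb7, Cblc and Rasef step at the same place, and Sox10 stays at or below 3.56 RPKM in each of the 12.

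Of a list of 9 neuregulin pathway genes, ligands and receptors of the Erbb family, 6 passed the filter on low values and 0 were called between locations. In the F test over locations 0.0407% of all genes tested were called. Egfr, the related epidermal growth factor receptor, was at 11.2 to 134 RPKM. Its ligand Hbegf was at 4.69 to 68.9 RPKM. Erbb2, the signalling partner of Erbb3 in Schwann cells, was at 3.14 to 27.0 RPKM. Nrg1, which encodes neuregulin-1, was below these 3 by median, at 6.17 RPKM. It was at 7.21 to 18.8 RPKM in the retro-orbital, 1.33 to 6.42 in the meninges and 1.22 to 1.91 in the cheek tumors. Its cheek minus retro-orbital difference was -2.21 on the log2(RPKM + 1) scale (limma adjusted p = 0.185).

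Ngfr (chr11:95568818-95587735, minus strand) measured 1.08, 0.180, 6.13 and 2.44 RPKM in the retro-orbital, 1.25, 0.540 and 0.178 in the cheek, 0.918, 0.882 and 1.96 in the meninges, 6.32 in the vestibular and 1.14 in the trigeminal nerve tumor. Its top tumors, the vestibular nerve tumor and retro-orbital tumor 3, both lay in the high Erbb3 range, while meninges tumor 1, highest for Sox10, had Ngfr at 0.918 RPKM. The genes most like Ngfr were Ikzf2 (r = 0.96), Ddx19b (r = 0.93) and Mtmr12 (r = 0.93). With Sox10, r was 0.37 and rho 0.57 over 12 tumors (permutation p = 0.231 and 0.0561, adjusted 0.582 and 0.224), and r was 0.57 without the 2 tumors farthest from the median of Sox10.

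Cdh19 (chr1:110888326-110977584, minus strand) measured 0.568, 0.0780, 1.07 and 0.421 RPKM in the retro-orbital tumors, 0.266, 0.120 and 0.149 in the cheek tumors, 2.90, 0.971 and 1.99 in the meninges tumors, 0.588 in the vestibular and 0.990 in the trigeminal nerve tumor. Every meninges tumor was above every cheek tumor, and the retro-orbital tumors overlapped both groups, since tumor 3 of that site exceeded meninges tumor 2. These are low levels, 6 to 244 fragments per tumor.

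Cdh19 rose and fell with Sox10. Over 12 tumors r was 0.84 (permutation p = 0.00077, adjusted 0.0277) and rho was 0.83 (permutation p = 0.00125, adjusted 0.0225), the only pair of the 36 whose r over 12 tumors passed an adjusted p of 0.05. Sox10 with Erbb3 also passed for rho (0.85, adjusted permutation p = 0.0225), which ranks across the 2 Erbb3 ranges. Without the 2 tumors farthest from the median of Sox10 (retro-orbital tumor 2 and meninges tumor 1), r was lower at 0.64. With each location's mean subtracted in the 10 tumors of the replicated locations, r was 0.89 (exact within-location permutation p = 0.00347, adjusted 0.0417). Treated the same way, Sox10 with Erbb3 had r = 0.84 and Cdh19 with Erbb3 r = 0.83 (each with an adjusted exact permutation p of 0.0208), again across both Erbb3 ranges. Of 17 alternative settings, 8 kept the adjusted p of Sox10 with Cdh19 below 0.05, and r was 0.70 to 0.90 over the 17. The adjusted permutation p was 0.308 (r = 0.70) without meninges tumor 1, the highest for both genes at 3.56 and 2.90 RPKM, 0.109 without meninges tumor 3, 0.0853 and 0.0565 without retro-orbital tumors 2 and 3, and 0.067 and 0.0652 without cheek tumors 2 and 3. It was 0.181 with no tumors that share a title part, 0.214 with quantile normalization and 0.0562 with a pseudocount of 0.1. The trigeminal nerve tumor lay off the trend, with Cdh19 at 0.990 RPKM beside Sox10 at 0.279. Cdh19 stood in place 34 of 15043 genes in likeness to Sox10; the 3 genes most like Sox10 were Pantr1 (r = 0.92), Reep4 (r = 0.92) and Irs1 (r = 0.92).

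**Figure D3:**
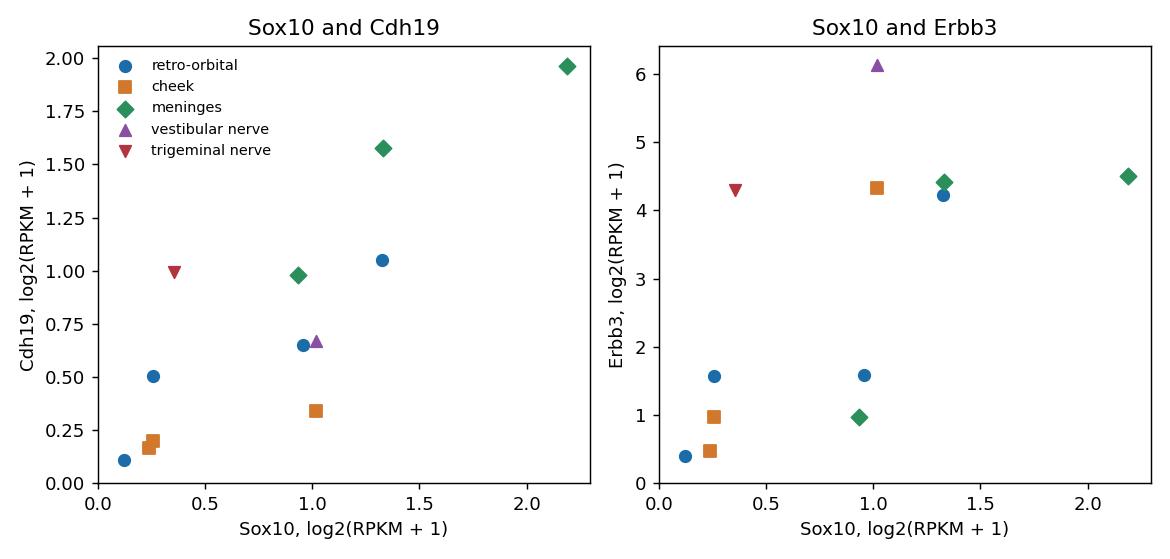
Log2(RPKM + 1) of Cdh19 (left) and of Erbb3 (right) against Sox10 in the 12 tumors, with colors and symbols for the location. Cdh19 rises with Sox10 (r = 0.84), whereas Erbb3 lies in 2 bands, with the trigeminal nerve tumor high in Erbb3 (18.6 RPKM) at a Sox10 level of 0.279 RPKM.

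The genes nearest to Cdh19 were Tmod2 (r = 0.96), Hepacam (r = 0.96) and Zfp536 (r = 0.96). Hepacam encodes an adhesion molecule of astrocytes, and the astrocyte and oligodendrocyte lists, taken as scores, moved with Cdh19. In a family of 90 relations (9 genes and 10 marker lists, the score being the mean log2(RPKM + 1) of the list), set up after the values were seen, Cdh19 had r = 0.89 with the astrocyte list (permutation p = 6e-05, adjusted 0.0054; rho = 0.85, adjusted p = 0.0616). It had r = 0.84 with the oligodendrocyte list (adjusted permutation p = 0.0192; rho = 0.76, adjusted 0.12) and r = 0.83 with the peripheral myelin list (adjusted permutation p = 0.0192; rho = 0.83, adjusted 0.0616). Without the 2 tumors farthest from the median of the list score, the values of r were 0.85, 0.79 and 0.71 in that order. Location means were not subtracted for these lists. Location accounted for 73.2% of the sum of squares of Cdh19, so a difference between sites was not separated from these relations. No other gene of the set passed an adjusted p of 0.05 with any list. The next was Sox10 with the oligodendrocyte list (r = 0.77, permutation p = 0.0031, adjusted 0.0697; rho = 0.62, adjusted 0.226).

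The astrocyte list summed to 204 to 569 RPKM in the meninges, 183 to 227 in the cheek and 61.1 to 365 in the retro-orbital tumors, and 6 of its 6 genes passed the filter. Gfap, an intermediate filament of astrocytes and also of non-myelinating Schwann cells, was at 0.324 to 0.589 RPKM in the cheek tumors and 65.1 to 260 in the meninges tumors. Aqp4, the water channel of astrocyte endfeet, was at 0.164 to 15.4 RPKM and 19.7 to 88.5 RPKM in the same groups. Gja1, a gap junction gene of many cell types, made up most of the cheek sums (180 to 205 RPKM). It went the other way from Gfap and Aqp4, at 31.2 to 111 RPKM in the meninges tumors. The oligodendrocyte list summed to 17.2 to 88.4 RPKM in the meninges and 2.14 to 4.0 RPKM in the cheek tumors. These sums were led by a single gene, Cldn11, at 10.5 to 83.4 and 1.25 to 2.41 RPKM. Of the 8 genes, 4 reached 1 RPKM in no tumor. The defining factor of that list, Olig2, was listed at 0 in 4 tumors and at most at 0.968 RPKM. It was at 0.437 to 0.968 RPKM in the meninges and at 0.0145 RPKM or less in the cheek tumors. The part of brain tissue in the Cdh19 values was not tested.

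**Figure D4:**
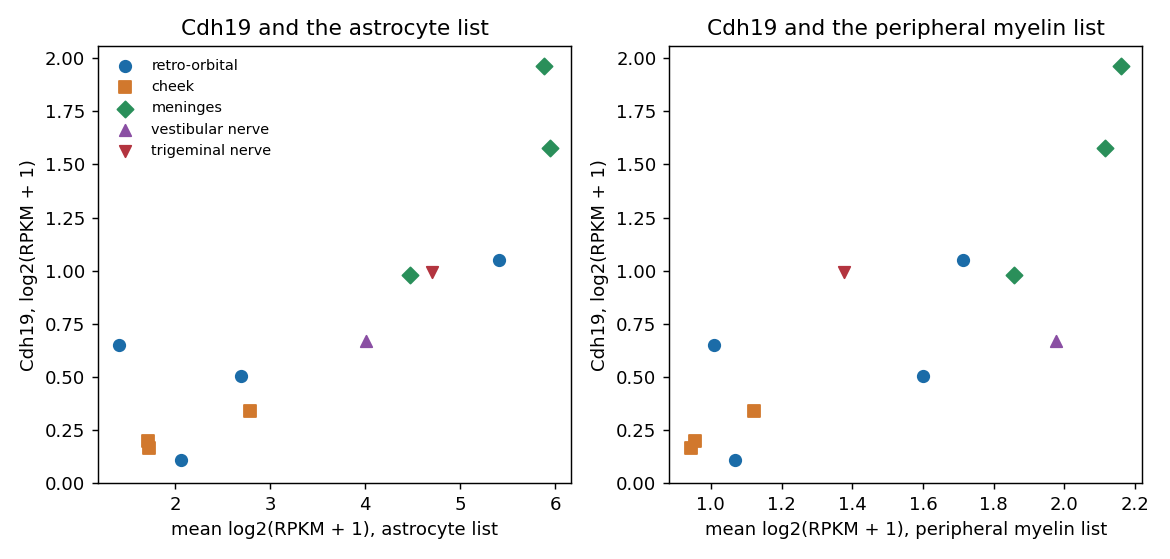
Cdh19 in log2(RPKM + 1) against the mean log2(RPKM + 1) of the astrocyte list (left) and of the peripheral myelin list (right) in the 12 tumors, with colors and symbols for the location. Cdh19 rises with both lists (r = 0.89 and 0.83), and the meninges tumors lie toward the upper right in each panel.

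The regulators of myelination parted from each other. Pou3f1 (chr4:124656807-124660655, plus strand) measured 0.147, 0.0452, 1.12 and 1.39 RPKM in the retro-orbital, 0.445, 0.0509 and 0.101 in the cheek, 2.91, 0.101 and 0.859 in the meninges, 0.105 in the vestibular and 3.80 in the trigeminal nerve tumor. It was the lowest gene of the set by median and spread 84.0-fold between its lowest and highest tumor. The antisense gene Gm2164 overlaps it. Its profile was most like those of Smndc1 (r = 0.90) and Tslp (r = 0.88). With Cdh19 it had r = 0.65 (permutation p = 0.0223, adjusted 0.223; rho = 0.74, adjusted 0.0852), which did not pass the adjustment, and r was 0.54 without the 2 tumors farthest from the median of Cdh19.

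Egr2 (chr10:67535475-67542188, plus strand) was present throughout at 6.11, 8.01, 2.39 and 12.4 RPKM in the retro-orbital tumors, 5.88, 4.17 and 3.75 in the cheek tumors, 3.84, 11.6 and 19.9 in the meninges tumors, 11.3 in the vestibular and 4.86 in the trigeminal nerve tumor. Its lowest tumor, retro-orbital tumor 3, was above the mean for Sox10, Erbb3, Ngfr and Pmp22, and its highest was meninges tumor 3. Egr2 had r = -0.06 with Sox10 (rho = -0.02), -0.19 with Pou3f1 (rho = -0.06) and 0.36 with Pmp22 (rho = 0.34), with permutation p-values for r of 0.858, 0.543 and 0.246 (adjusted 0.913, 0.850 and 0.582; adjusted for rho 0.974, 0.948 and 0.645). Without the 2 tumors farthest from the median of Egr2, retro-orbital tumor 3 and meninges tumor 3, r with Pmp22 was 0.74. Egr2 is also an early response gene in many other cell types, among them macrophages and lymphocytes, and the leukocyte list summed to 83.3 to 496 RPKM in these tumors, with r = 0.33 to Egr2 (permutation p = 0.294, adjusted 0.54 over 90 relations; rho = 0.46, adjusted 0.356; r = 0.51 without the 2 tumors farthest from the median of the list score). The 3 genes most like Egr2 were Zfp87 (r = 0.94), Zfp759 (r = 0.91) and Gm8801 (r = 0.90). Of 6 partners and modifiers of Egr2 (Nab1, Nab2, Pou3f2, Yy1, Id2 and Id4), 4 reached 1 RPKM in 12 of 12 tumors and 0 were called between locations. Only 0.0407% of all genes tested were called in the F test over locations. Id2 was at 16.8 to 184 RPKM, Yy1 at 30.1 to 59.6 RPKM, and Nab2, a corepressor that binds Egr2, at 20.9 to 72.6 RPKM.

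Pmp22 (chr11:63128982-63159547, plus strand) encodes a tetraspan protein of compact peripheral myelin and was the most abundant gene of the set. Its start regions are shown because the gene is read from alternative first exons, a Schwann cell start that is strong during myelination and a second start used in many tissues, and the level alone does not tell them apart. The 250 bases before each of the 2 starts given by RefSeq on GRCm38.p6 (plus strand, chr11:63128732-63128981 and chr11:63131207-63131456) are printed in lower case with each CG dinucleotide in capitals.
Pmp22 start 1: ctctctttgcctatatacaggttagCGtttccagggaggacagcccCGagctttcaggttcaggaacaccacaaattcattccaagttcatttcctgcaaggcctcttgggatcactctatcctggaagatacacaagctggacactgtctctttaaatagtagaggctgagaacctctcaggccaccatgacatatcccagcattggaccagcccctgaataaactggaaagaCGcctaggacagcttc
Pmp22 start 2: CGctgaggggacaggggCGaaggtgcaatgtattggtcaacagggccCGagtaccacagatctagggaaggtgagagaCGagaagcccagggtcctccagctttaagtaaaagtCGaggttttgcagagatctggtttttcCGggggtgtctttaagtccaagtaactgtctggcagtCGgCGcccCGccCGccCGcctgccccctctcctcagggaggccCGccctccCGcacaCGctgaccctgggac
The upstream start holds 3 CG and 48.8% G and C, and the downstream start 14 CG and 61.2%. Over 27025 genes the median window held 6 CG, 70.4% of windows held at least 3 and 29.6% at least 14. The deposited value sums fragments over the gene, so the share from each start was not measured.

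Pmp22 measured 20.6, 83.1, 116 and 90.4 RPKM in the retro-orbital, 30.5, 34.0 and 32.7 in the cheek, 46.2, 159 and 68.2 in the meninges, 77.1 in the vestibular and 53.5 in the trigeminal nerve tumor. It ranked above 84.9% to 98.8% of all genes in its tumors. The cheek tumors lay close together and below every meninges tumor, and only retro-orbital tumor 1 was lower still. The tumor highest in Pmp22, meninges tumor 2, had Sox10 at 0.911 RPKM. Pmp22 had r = 0.05 with Sox10 (rho = -0.02; permutation p = 0.887, adjusted 0.913, and 0.974 for rho; r = 0.28 without the 2 tumors farthest from the median of Sox10). The genes most like it were Vps28 (r = 0.92), Vps9d1 (r = 0.90) and Tecpr1 (r = 0.89), of which Vps28 encodes a subunit of an endosomal sorting complex.

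Of the 12 genes of the peripheral myelin list, 7 passed the filter on low values and 2 reached 1 RPKM in no tumor. Pmp2, a fatty acid binding protein of peripheral myelin, was listed at 0 in 7 tumors and at most at 0.325 RPKM. The list was led by Cnp (6.35 to 18.4 RPKM), Mbp (1.41 to 26.8 RPKM) and Mal (0.425 to 31.8 RPKM), genes that oligodendrocytes express too. Pmp2 was thus low or at 0 in the same tumors in which Pmp22 and Egr2 were above 1 RPKM.

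Of 13 genes of Schwann cell precursors and immature Schwann cells, 10 passed the filter and 0 were called in any contrast. Of all genes tested, 0.0203% to 0.0475% were called, so a count of 0 says little for this list or those below. Unadjusted, 5 of the 10 were under 0.05 in the limma F test over locations, against 2110 of all 14745 genes. Gfap (0.309 to 260 RPKM), S100b (0.593 to 32.5 RPKM) and Ncam1 (2.05 to 29.9 RPKM) had the highest medians. Gfap also belongs to the astrocyte list above, so its level is not particular to the Schwann cell lineage. In meninges minus cheek they differed by 6.80, 3.56 and -1.67 on the log2(RPKM + 1) scale (limma adjusted p = 0.113, 0.0783 and 0.250). Of 8 genes of the repair Schwann cell that forms after nerve injury, 5 passed and 0 were called. Its driver Jun, which is also induced in many other cells, was at 21.4 to 111 RPKM, Lif at 0.552 to 9.18 RPKM and Runx2 at 0.612 to 10.5 RPKM. Of 8 other Sox genes, 5 passed and 0 were called; Sox4 led at 11.6 to 41.3 RPKM, followed by Sox12 (2.30 to 9.52 RPKM) and Sox18 (0.729 to 11.0 RPKM). Cartilage genes, a readout of Sox9 in skeletal tissue, were led by Hapln1 (0.993 to 55.8 RPKM), Col9a2 (0.0991 to 10.7 RPKM) and Col11a2 (0.54 to 4.52 RPKM), with 7 passing and 0 called. Melanocyte genes, which depend on Sox10 in that lineage, were led by Mitf (1.90 to 10.1 RPKM), Pmel (0.391 to 2.69 RPKM) and Mlana (0 to 4.43 RPKM), with 2 of 6 passing the filter and 0 called.

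The genes most like Sox9 were Serpind1 (r = 0.93), Cacnb2 (r = 0.90) and Col4a4 (r = 0.90), and those most like Sox8 were Trerf1 (r = 0.92), Ints9 (r = 0.88) and Cyb5b (r = 0.87). These nearest genes were chosen by likeness alone, so their r values carry no test.

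Whether the set differed between sites was asked with limma over 14745 genes in the 10 tumors of the 3 replicated locations, with the 2 nerve tumors left out because each is alone at its site. None of the 9 genes had an adjusted p below 0.05 in the F test over locations, against 0.0407% of all genes called. Unadjusted, 1 of the 9 was under 0.05 (Cdh19), against 2110 of all 14745 genes. None was called in meninges minus retro-orbital (0.0203% of all genes called), cheek minus retro-orbital (0.0271%) or meninges minus cheek (0.0475%). So few genes were called at all that these comparisons say little about smaller differences; in simulated data for meninges minus retro-orbital over 14745 genes, the same fit recovered 27 of 100 changes planted at 4 times the fitted SD of a gene and 2 of 100 planted at 2 times that SD.

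Cdh19 came nearest. It was higher in meninges than in cheek tumors by 1.27 ± 0.34 (SE) on the log2(RPKM + 1) scale (95% interval 0.51 to 2.04, limma adjusted p = 0.146) and higher than in retro-orbital tumors by 0.93 ± 0.32 (limma adjusted p = 0.493). Its F test over the 3 locations had an unadjusted p of 0.0105 and an adjusted p of 0.250 in limma. Location accounted for 73.2% of its sum of squares over the 10 tumors, against a median of 30.1% over all genes tested and 13.6% for Erbb3. Sox10 differed by 0.98 ± 0.45 (SE) between meninges and cheek (interval -0.03 to 1.98, limma adjusted p = 0.304) and Pmp22 by 1.27 ± 0.62 (interval -0.12 to 2.66, limma adjusted p = 0.330). The interval for Erbb3 in the same contrast ran from -1.61 to 4.36.

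In meninges minus cheek, 9 of the 9 differences were above 0 with a median of 0.98, and the median of all genes tested was also above 0, at 0.16. In meninges minus retro-orbital 8 of 9 were above 0 (median 0.46, all genes 0.13), Ngfr being the exception at -0.34. In cheek minus retro-orbital 1 of 9 was above 0 (median -0.40, all genes -0.02). With quantile normalization these counts were 9, 7 and 2, and with RPKM rescaled to the same sum per tumor 9, 8 and 0, so that 9 of 9 in meninges minus cheek held under both scalings. The 3 contrasts share tumors and are not separate evidence. Every meninges tumor lay above every cheek tumor for 2 of the 9 genes, Cdh19 and Pmp22, and this also held for 19.2% of all genes tested.

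**Figure D5:**
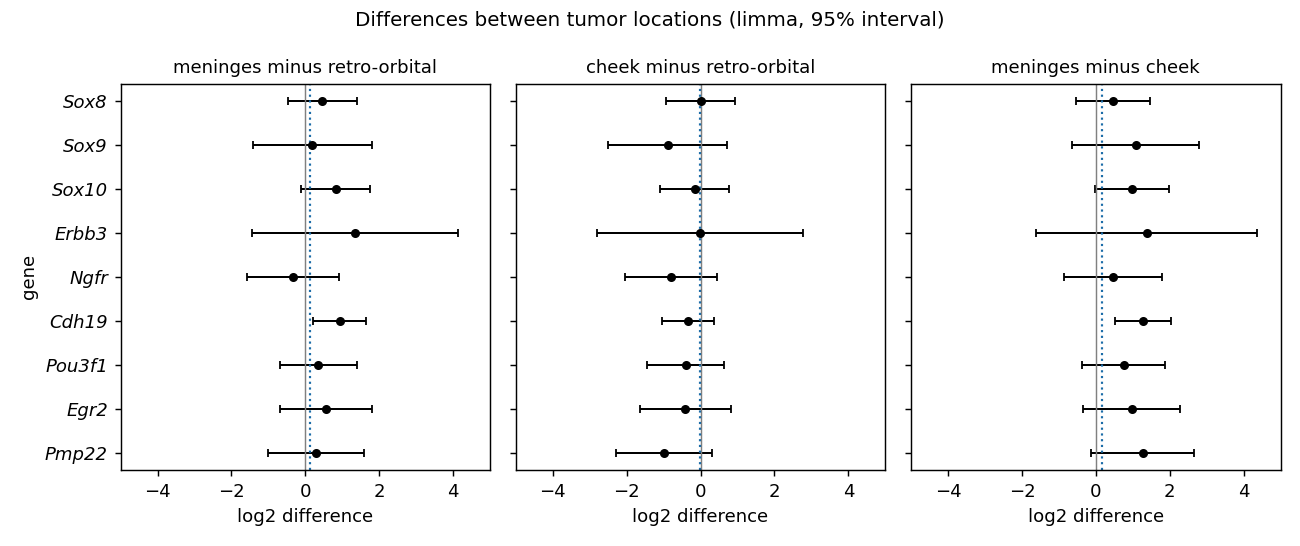
Log2 differences of the 9 genes between tumor locations (points) with 95% intervals from limma (bars) in 10 tumors; the grey line marks 0 and the dotted line the median of all genes. Only the Cdh19 intervals for meninges minus retro-orbital and meninges minus cheek leave out 0, and neither passed the adjusted threshold.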

How the data were processed

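RNA was sequenced from 12 frozen tumors with a stranded, ribosomal RNA depleted library (no replicate libraries), pooled for sequencing as 1 multiplex. The authors aligned reads to mm10 with STAR, counted fragments over refFlat genes with HTSeq and deposited RPKM per gene; the submitters' notes also name bcl2fastq 2.17, edgeR and limma. The strand setting was not given in the sources used here. Library totals were recovered from the steps of the low RPKM values (51.8% to 61.3% of low values came out whole within 0.01 of a fragment when set against GENCODE lengths, the authors' gene lengths not being used here), and member fragments as the smallest length at which 12 values were whole within 0.05. Because not nearly all values were recovered, no count test was run.

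Values were tested as log2(RPKM + 1), on which a fold change of a low gene is understated. limma 3.58.1 (R 4.3.3; trended, robust prior) compared 3 locations over genes that reached 1 RPKM in 3 or more of 10 tumors, Benjamini-Hochberg adjusted. Gene pairs were tested by exact sign flips (4096) and correlations by permutation (100000 resamples; exact within 6 tumors and for 864 within-location arrangements), two-sided. Scripts were tested on simulated data; Python 3.11.15 packages drew the figures. Gene positions are from GENCODE M21 (GRCm38), and start windows were matched by symbol to a RefSeq table that held 4 of the 9 genes. Intervals and fragment numbers cover counting error or tumor spread only, and each group's size (1 to 4) limits precision. The 9 genes and the marker lists were chosen with earlier results of these data known. All 9 genes were named; for each, the 3 genes of highest r over 12 tumors (among genes reaching 1 RPKM in 3 or more), and from each other list the called genes and the 3 highest by median; some genes that this rule or the lists hold are not reported here. Alternatives were the pseudocount, filter, scaling, prior and left-out tumors.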

Additional observations from a re-analysis of the deposited data

Results flagged for a closer look

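In the retro-orbital group, the only location with 4 tumors, the Erbb3 value of retro-orbital tumor 3 (17.6 RPKM) stood apart from the other 3 (0.322, 1.97 and 2.01 RPKM). The gap to its nearest neighbour was 0.902 of the group's whole range in RPKM, above Dixon's 95% critical value for 4 values. On the log2(RPKM + 1) scale used for the tests the same gap was 0.689 of the range, below that value, and none of the 9 genes was above it. On that scale the gap was wider for Pmp22 (0.806, set by retro-orbital tumor 1) and Sox8 (0.719, set by retro-orbital tumor 4). A gap above the critical value arises by chance in about 1 in 20 groups of normally distributed values, and 9 genes were screened. Whether RPKM values are so distributed was not checked. Of the other 8 genes the widest gap in RPKM was that of Sox8, 0.807 of the range, set by retro-orbital tumor 4. Retro-orbital tumor 3 was also the deepest library and shares the first part of its title with the trigeminal nerve tumor, in which Erbb3 was at 18.6 RPKM.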

How the results depend on the processing

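None of the 9 genes was called in the F test over locations under any alternative run. Numbers of genes called moved widely. The F test called 6 genes, 10 without the filter, 19 with a plain prior and 0 without tumors that share a title part; leaving out single tumors gave 0 to 198 (198 without cheek tumor 1, 56 without retro-orbital tumor 3, 14 without retro-orbital tumor 1, 3 without meninges tumor 3, 0 without cheek tumor 2, cheek tumor 3 or meninges tumor 1). Meninges minus retro-orbital called 3, 7 without the filter, 6 with a plain prior, 0 without shared titles and 0 to 41 with single tumors left out (41 without retro-orbital tumor 3). Cheek minus retro-orbital called 4, 2 without the filter, 0 without shared titles and 0 to 147 (147 without cheek tumor 1). Meninges minus cheek called 7, 2 with a pseudocount of 0.1, 18 without the filter, 13 with quantile normalization, 22 with a plain prior, 0 without shared titles and 0 to 527 (527 without cheek tumor 1, 65 without retro-orbital tumor 3). The cause was not tested. Sox8, Cdh19 and Pou3f1 fell below the filter in 3 of the 10 sets with a tumor left out. The adjusted p of Cdh19 over locations ranged from 0.169 to 0.675 with single tumors left out.

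The number of gene pairs that differed in level was 22 and stayed within 20 to 26. Of the correlations, 1 pair passed, 0 with a pseudocount of 0.1, quantile normalization or no shared titles, 3 with location means subtracted (Sox10 with Cdh19, and both with Erbb3), and 0 to 2 with single tumors left out. The r of Sox10 and Cdh19 kept its sign throughout, from 0.70 to 0.90, but its adjusted p exceeded 0.05 with a pseudocount of 0.1 (0.0562), quantile normalization (0.214), no shared titles (0.181) and without retro-orbital tumor 2 or 3, cheek tumor 2 or 3, or meninges tumor 1 or 3. No paired analysis was possible because the replicate numbers only name tumors in accession order. Depth limits the lowest values, which rest on 4 to 9 fragments.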
